A study of Sus scrofa with 20 samples.

Results

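RNA of porcine biliary tree stem/progenitor cells (pBTSC) was compared with RNA of CD45+ cells sorted from pig liver. The members were taken from the deposited labels: 5 libraries carry the cell type pBTSC and 5 carry the cell type CD45+ with the tissue liver, so 10 of the 20 libraries of the series entered the comparison. The other 10 libraries are further liver fractions (CD45-/EpCAM+, CD45-/EpCAM-, CD31+ and CD146+). The pBTSC libraries, named by their storage numbers, are S2, S7 and S11 from H2B-GFP transgenic piglets and S15 and S20 from wild-type piglets; S11 came from a piglet of 2 days of age and the other 4 from piglets of 1 day. The labels give gallbladder as the tissue of the pBTSC, and the study's list of samples names gallbladder together with extrahepatic biliary tree. The liver CD45+ libraries are S3, S8, S12, S18 and S23, and neither the line, the age nor the donor of these cells is given in the sources used here. Below, values are listed in this order of libraries, pBTSC first.

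CD45 is a phosphatase of the surface of nucleated blood cells, encoded by PTPRC, and a CD45 antibody is the usual way to gather leukocytes from a digested organ. In liver these are mainly Kupffer cells, the resident macrophages that line the sinusoids, with lymphocytes and, in newborn animals, remaining blood-forming cells. Biliary tree stem/progenitor cells are endodermal cells of the peribiliary glands in the walls of the bile ducts, and the methods of the study describe immunoselection by surface antigens from digested tissue, with cells bearing antigens of mature blood and mesenchymal cells depleted, followed by hours in culture as organoids that also hold early mesenchymal cells (angioblasts and precursors of endothelial and stellate cells). The study defines such cells as negative for CD45 and positive for EpCAM, while the labels of the pBTSC libraries name no antigen. By label the comparison is thus of pBTSC from gallbladder with CD45+ cells of liver. The measured levels do not bear out the pBTSC libraries as epithelial progenitors alone. Their EPCAM levels overlapped those of CD45+, and fibroblast and matrix genes took 2.61 to 9.58% of their normalized counts. Nor do they bear out the CD45+ libraries as leukocytes alone. PTPRC levels of CD45+ overlapped those of pBTSC, and hepatocyte plasma protein genes took 7.51 to 15.7% of the CD45+ normalized counts. All libraries are bulk preparations, in which fewer cells of a type and less RNA per cell cannot be told apart.

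Estimated depth was between 28.7 and 50.2 M reads in the CD45+ libraries, and 77.8, 72.0, 29.1, 1.57 and 40.6 M in the pBTSC. S15 is thus shallow: 1 read is worth 12.6 normalized counts there, so that its floor of 3 reads lies at 37.7 normalized counts, against at most 1.92 in the other pBTSC and 2.18 in the CD45+ libraries. S12 stood apart within CD45+, with 0.322% of its normalized counts on 22 pan-leukocyte genes against 0.0727 to 0.110% in the other 4. S15 and S18 stood apart in 17 interferon-response genes, which took 0.511% of S15 and 0.456% of S18 and 0.0520 to 0.155% of the other 8 libraries. In the CD45+ libraries 31 hepatocyte plasma protein genes took 7.51 to 15.7% of all normalized counts, and in the pBTSC 0.308 to 0.644%. No 2 libraries of a group agreed within counting noise, since the closest pair, S15 with S20, differed by 1.67 times the spread that counting alone gives. RNA integrity numbers, a score of RNA breakdown, are given by the study for the pBTSC except S15. They were lowest in S7 and S11 and highest in S20. None is given for the CD45+ libraries, and the part of RNA integrity in the differences was not tested.

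Across all genes pBTSC and CD45+ libraries were clearly separate. Of 15576 genes tested, 1716 were higher in pBTSC (11%) and 1486 were lower (9.54%) at a limma adjusted p under 0.05 and a fold change above 2, that is an absolute log2 fold change above 1. Without the 3 libraries of the series with under 2000000 reads, S15 among them, 2117 genes were higher (13.8%) and 1574 lower (10.2%) of 15380 tested. The share of higher genes among those called was 53.6% with the deposited scaling and 66.8% when all libraries were scaled to an equal sum, where 2406 genes were higher and 1198 lower. That rescaling moved the median log2 fold change of all genes from 0.07 to 0.31. Among the 166 genes chosen for description no called gene turned its direction under rescaling or under quantile normalization, although 10 and 1 respectively were no longer called. Genes that were not called could turn, as PTPRC and CD44 did under rescaling.

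Fold changes are given on the scale of log2(normalized count + 1), pBTSC minus CD45+, with the standard error of the fit; they understate the change of genes with few reads. In 2772 genes every pBTSC library lay above every CD45+ library (17.8% of those tested) and in 2108 every pBTSC library lay below (13.5%). Within a group, libraries correlated over genes with a median Pearson coefficient of 0.942 in pBTSC and 0.953 in CD45+, and the 25 pairs across the groups with a median of 0.809. These coefficients share the base level of every gene and describe the libraries only. The limma p-values and standard errors rest on the spread within groups over all 20 libraries fitted, shallow ones included, and not on pBTSC and CD45+ alone. For NCAM1 the standard error was 1.01 in that fit and 0.288 without the libraries under 2000000 reads. The exact permutation tests used the pBTSC and CD45+ libraries only. Each pBTSC library came from a separate piglet, and the donors of the CD45+ libraries are unstated.

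**Figure D1:**
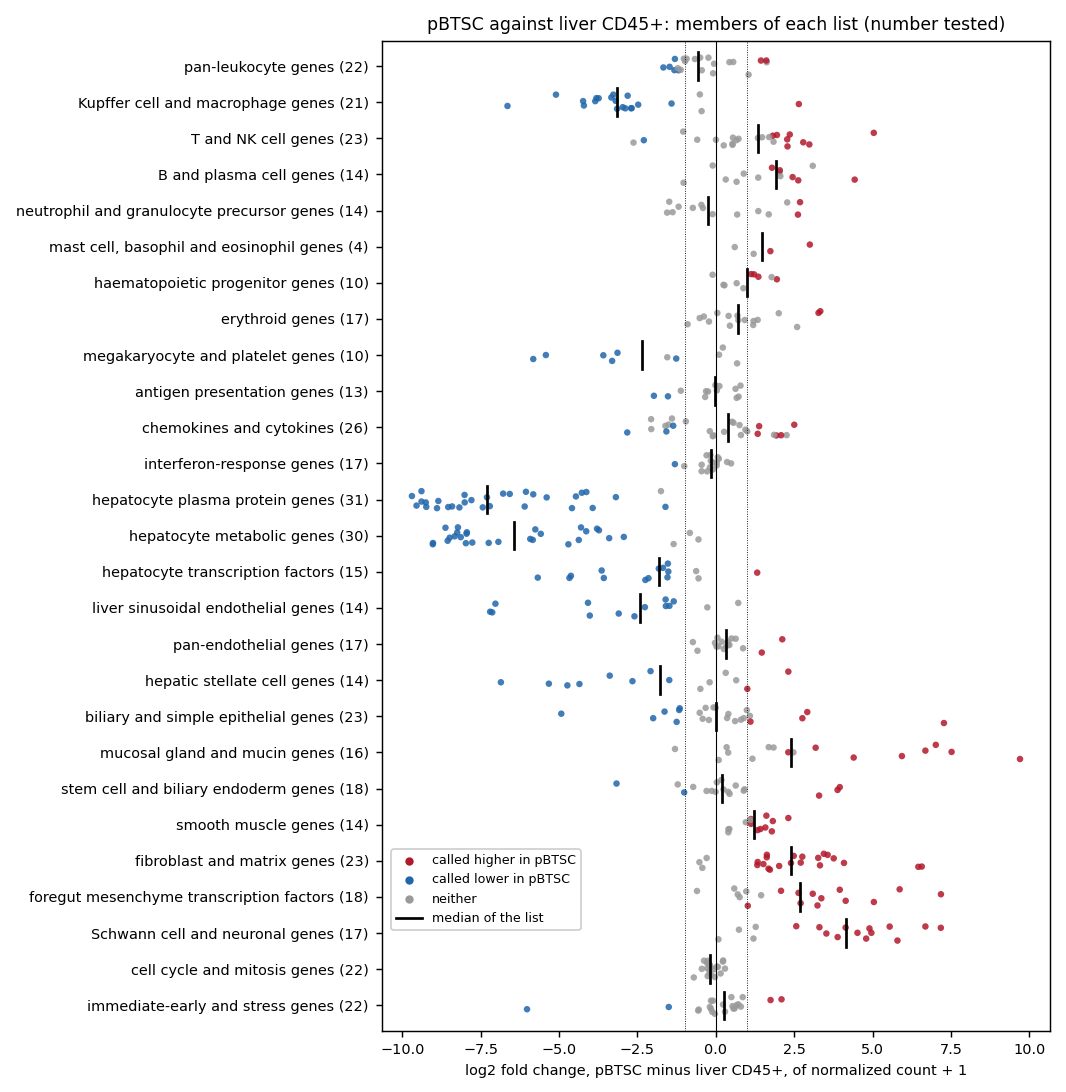
Log2 fold change of normalized count + 1 (x axis, pBTSC minus liver CD45+) of each tested member of 27 gene lists (rows, number tested in brackets), coloured by call, with the median of the list as a black bar and dotted lines at -1 and 1. Hepatocyte, sinusoidal endothelial and Kupffer cell genes lie to the left, gland, matrix, foregut mesenchyme and neural genes to the right, and the 22 pan-leukocyte genes on both sides of 0.

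PTPRC itself, the gene of the antigen by which the liver cells were sorted, did not separate the groups. Normalized counts were 971, 534, 777, 1455 and 2139.5 in pBTSC (mean 1175 ± 636 SD, n = 5) and 424, 1153, 2687, 1227 and 1777 in CD45+ (1454 ± 841 SD, n = 5). The lowest value of all 10 was that of a CD45+ library, S3, and the second highest that of a pBTSC library, S20. The mean log2 difference was -0.24 (exact permutation test, two-sided, p = 0.690), and it turned to 0.01 with all libraries scaled to an equal sum, to 0.00 without S7 and to 0.04 without S12. With PTPRC at this level in both groups, the label CD45+ is not borne out by a higher PTPRC level, and the group is called by its label below.

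Of the 8 sort antigen genes, which were tested as 1 family with a smallest possible p of 0.00794, NCAM1 and PECAM1 passed. NCAM1, a neural cell adhesion molecule that also marks immature biliary cells, stood at 2219, 2204, 2711, 1903 and 2100 in pBTSC and at 265, 232, 113, 294 and 282 in CD45+, a 9.39-fold difference of the means. The groups did not overlap (log2 difference 3.29, exact permutation p = 0.00794, adjusted p = 0.0317). PECAM1, the endothelial antigen CD31, was 0.87 higher on the log2 scale in pBTSC, again without overlap (exact permutation p = 0.00794, adjusted p = 0.0317). Without S2, S7, S11 or S20 the adjusted p of both was 0.0635, and within S2 to S12, where 3 libraries against 3 cannot pass the threshold, it was 0.267. With 1 pBTSC library left out, a gene that alone reaches the smallest possible p has an adjusted p of 0.0635. The lost call of NCAM1, whose groups still did not overlap, thus says nothing of single libraries. In those 4 fits the NCAM1 difference was 3.22 to 3.31 and the PECAM1 difference 0.81 to 0.91.

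EPCAM, the epithelial antigen, was measured at 2075, 1145, 1364, 1047 and 884 in pBTSC and at 2095, 2232, 1415, 1198 and 1175 in CD45+. These ranges overlap over most of their length (log2 difference -0.33, exact permutation p = 0.254, adjusted p = 0.392). ICAM1, the adhesion molecule ICAM-1, differed by -0.38 (exact permutation adjusted p = 0.392), CD44, the hyaluronan receptor, by -0.13 (0.690) and CXCR4, the receptor of CXCL12, by 0.44 (0.333). MCAM, the antigen CD146, differed by 0.55 (exact permutation p = 0.0317, adjusted p = 0.0847) and passed the adjusted threshold without the 3 shallow libraries.

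Most pan-leukocyte genes were not called. Of 22 tested, 5 were lower in pBTSC, 2 were higher and 15 were neither, with a median log2 fold change of -0.58 against 0.07 over all genes. Over all genes tested 9.54% were lower and 11% higher. FCER1G, the signalling chain of Fc receptors, stood at 428, 373, 212, 468 and 672 in pBTSC and at 613, 1423, 4019, 903 and 1122 in CD45+ (-1.67 ± 0.47, limma adjusted p = 0.0103). LCP1, the actin-bundling L-plastin of leukocytes, was the most abundant member, with means of 2179 ± 757 SD in pBTSC and 5581 ± 3970 SD in CD45+ (-1.19 ± 0.45, limma adjusted p = 0.0496). In both genes the highest library by far was S12. ITGB2, the beta chain of leukocyte integrins, TYROBP, an adaptor of myeloid receptors, and VAV1, an exchange factor of leukocytes, were lower, with log2 fold changes of -1.32, -1.31 and -1.48.

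RAC2, a GTPase of blood cells, went the other way, at 1063, 744, 732, 967 and 1437 in pBTSC and at 253, 328, 736, 218 and 227 in CD45+ (1.61 ± 0.32, limma adjusted p = 8.7e-04). Only S12 of the CD45+ libraries reached the pBTSC range. LSP1, a leukocyte actin-binding protein, was higher by 1.44 ± 0.47 and was no longer called without the shallow libraries (limma adjusted p = 0.0634). The count of lower genes rested on single libraries: it was 1 without S12 or S11, 2 without S2, S7 or S8, 3 without S15 or S23 and 8 without S18. The count of higher genes was 1 without S8, S15, S18, S20 or S23. It was also 1 lower gene with all libraries scaled to an equal sum, 9 lower and 0 higher within S2 to S12, and 0 lower and 6 higher within S15 to S23.

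**Figure D2:**
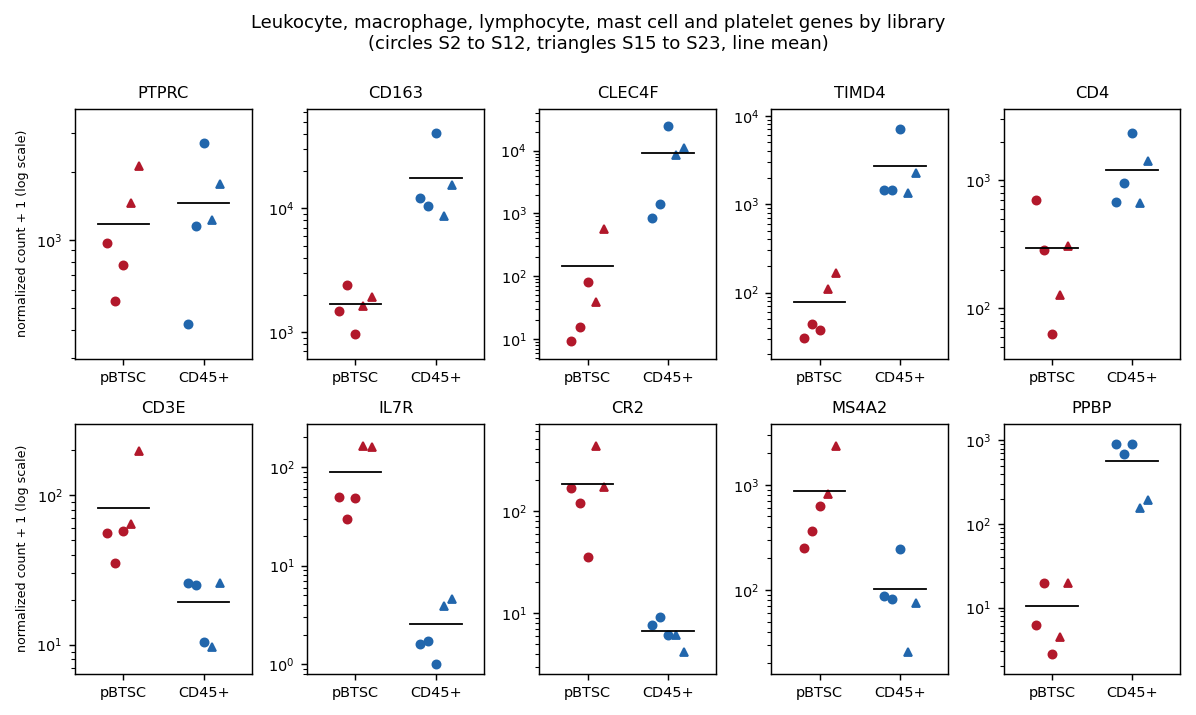
Normalized count + 1 (y axis, log scale, its range set for each gene) of 10 blood lineage genes in the 5 pBTSC (red) and 5 liver CD45+ libraries (blue); circles are storage numbers S2 to S12, triangles S15 to S23, and the line is the mean. PTPRC overlaps between the groups, CD163, CLEC4F, TIMD4 and PPBP lie higher in every CD45+ library, and CD3E, IL7R, CR2 and MS4A2 higher in every pBTSC library.

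The genes of macrophages made the plainest difference between the groups among the blood lineages. Of 21 Kupffer cell and macrophage genes tested, 18 were lower in pBTSC, 1 was higher and 2 were neither, with a median log2 fold change of -3.15; in 16 every pBTSC library lay below every CD45+ library. Together they took 0.0579 to 0.136% of the pBTSC libraries and 0.358 to 1.36% of the CD45+ libraries. The counts were 17 or 18 lower and 1 higher when any 1 library was left out, and without S12 they were 17 lower and 1 higher.

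CD163, the haemoglobin scavenger receptor of tissue macrophages, stood at 1491, 2398, 958, 1639 and 1907 in pBTSC and at 12119, 10434, 40930, 8645 and 15553 in CD45+, a 10.4-fold difference of the means (-3.20 ± 0.46, limma adjusted p = 4.1e-05). The pBTSC values were thus far from 0, and their highest was below the lowest CD45+ value by several fold. C1QA, a subunit of complement C1q made by macrophages, lay at 1017, 635, 734, 2639 and 2918 in pBTSC and at 6783, 8476, 31709, 10007 and 16794 in CD45+ (-3.27 ± 0.50, limma adjusted p = 7.1e-05). Here S15 and S20 were above the other 3 pBTSC libraries.

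Genes of the resident Kupffer cell differed most. CLEC4F, a lectin of Kupffer cells, stood at 8.39, 14.7, 81.5, 37.7 and 573 in pBTSC and at 847, 1409, 24310, 8448 and 11087 in CD45+ (-6.65 ± 1.18, limma adjusted p = 3.2e-04). The value of S15 is at its floor of 3 reads, and S20 is the one pBTSC library near the CD45+ range. TIMD4, a phosphatidylserine receptor of long-lived resident macrophages, was 35.3-fold higher in CD45+ by the means (-5.10 ± 0.54, limma adjusted p = 1.4e-06) and MARCO, a scavenger receptor, 19.2-fold (-4.23 ± 0.46, limma adjusted p = 1.8e-06).

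Genes of iron handling fell within this list too. SLC40A1, the iron exporter ferroportin, stood at 1454, 1300.5, 1760, 2038 and 2989 in pBTSC and at 12323, 8949, 13589, 10919 and 14555 in CD45+ (-2.70 ± 0.23, limma adjusted p = 1.6e-07). HMOX1, the haem-degrading oxygenase, was lower (-3.81 ± 0.57, limma adjusted p = 6.0e-05). S12 was not apart from the other CD45+ libraries in SLC40A1. CSF1R, the receptor of the macrophage growth factor, was lower (-1.41 ± 0.48, limma adjusted p = 0.0293) with overlap, and was not called without S2, S7, S11, S12 or S23.

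MERTK, a receptor for the uptake of dead cells, was not called (-0.46 ± 0.34, limma adjusted p = 0.327). LYZ, the antibacterial enzyme lysozyme, which is made by gland epithelia as well as by myeloid cells, was higher in every pBTSC library: 813, 1069, 401, 377 and 369 against 199.5, 121, 72.1, 80.1 and 34.2 (2.65 ± 0.66, limma adjusted p = 0.00486).

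T and NK cell genes lay higher in pBTSC where they differed, apart from CD4. Of 23 tested, 8 were higher, 1 was lower and 14 were neither, with a median log2 fold change of 1.34. Their summed share overlapped between the groups, at 0.00611 to 0.0201% in pBTSC and 0.00641 to 0.0174% in CD45+. IL7R, the interleukin-7 receptor chain of lymphocytes, stood at 48.8, 28.9, 47.1, 163 and 158 in pBTSC and at 0.601, 0.728, 0, 2.88 and 3.60 in CD45+ (5.03 ± 0.69, limma adjusted p = 2.5e-05). At most a few reads were found in any CD45+ library, and 3 of the 5 were at or under 3 reads. ZAP70, the kinase of the T cell receptor, was measured at 27.4, 20.7, 26.2, 50.5 and 116 in pBTSC and at 3.63, 2.20, 4.36, 5.07 and 5.89 in CD45+ (2.98 ± 0.65, limma adjusted p = 0.00178).

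CD3E, a chain of the T cell receptor complex, lay at 54.8, 33.9, 56.8, 63.0 and 197 against 24.8, 24.1, 9.41, 8.66 and 24.8 (1.95 ± 0.64, limma adjusted p = 0.0262), with S20 apart from the other pBTSC libraries. CD2, an adhesion receptor of T and NK cells, was higher by 2.36 ± 0.82 (limma adjusted p = 0.0352) and GZMB, a protease of cytotoxic granules, by 1.81 ± 0.63 (limma adjusted p = 0.0352). CD8A, the co-receptor of cytotoxic T cells, was at 34.9 ± 24.2 SD against 13.7 ± 11.2 SD (1.34 ± 0.77, limma adjusted p = 0.199). CD4, which in many species is carried by macrophages and helper T cells alike, was lower in pBTSC, at 295 ± 248 SD against 1204 ± 696 SD (-2.30 ± 0.56, limma adjusted p = 0.00429); its highest pBTSC value, 697 in S2, lay within the CD45+ range.

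The T and NK cell calls rested on single libraries. The number of higher T and NK cell genes was 3 without S12 or S20, 5 without S3 or S8, and 2 with a pseudocount of 0.1. The lower ones numbered 2 without S3 and 3 without S20. CD3E was not called without S12, S18 or S20, CD2 without S3, S8, S12, S15 or S20, and GZMB without any 1 of 7 libraries (S2, S3, S7, S11, S12, S20 and S23).

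B cell genes followed the same direction. Of 14 B and plasma cell genes tested, 5 were higher in pBTSC, 0 lower and 9 neither, with a median log2 fold change of 1.91, and 8 were higher without the shallow libraries. CR2, the complement receptor of B cells and follicular dendritic cells, stood at 165, 119, 34.4, 431 and 168 in pBTSC and at 6.74, 8.15, 5.15, 5.13 and 3.21 in CD45+ (4.43 ± 0.81, limma adjusted p = 4.1e-04). Every pBTSC library was several fold above the highest CD45+ library. EBF1, a B cell transcription factor that is also found in stromal cells, was the most abundant called member, at 2423, 2456, 2596, 2834 and 2494 against 616, 590, 306, 973 and 856 (2.04 ± 0.35, limma adjusted p = 2.1e-04). PAX5, a transcription factor that defines the B lineage, was at 27.0, 61.5, 59.7, 13.8 and 68.8 against 6.89, 5.58, 2.76, 6.87 and 13.8 (2.45 ± 0.71, limma adjusted p = 0.0128), where the lowest pBTSC value, in S15, is under the floor of 3 reads.

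JCHAIN, the joining chain of secreted antibodies, split the pBTSC libraries: it stood at 116, 25.5 and 59.3 in S2, S7 and S11 and at 2715 and 8213 in S15 and S20, against 23.9 to 102 in CD45+. It was not called over the 5 against 5 libraries (3.09 ± 1.38, limma adjusted p = 0.0960). MZB1, a chaperone of antibody assembly, showed the same split, at 14.7, 14.98, 8.92, 62.8 and 184 against 1.46 to 6.01 (2.63 ± 0.81, limma adjusted p = 0.0183), and was not called without S8 or S20. CD79A, part of the B cell receptor, was higher by 0.89 ± 0.24 (limma adjusted p = 0.00965), short of the fold required. The number of higher B cell genes was 3 without S8 or S20 and 2 with a pseudocount of 0.1.

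Granulocyte genes mostly overlapped. Of 14 neutrophil and granulocyte precursor genes tested, 2 were higher in pBTSC, 0 lower and 12 neither (median -0.26). Among all genes 11% were higher and 9.54% lower. CSF3R, the receptor of granulocyte colony-stimulating factor, was at 323, 254, 78.3, 87.9 and 210 against 48.1, 71.3, 28.9, 7.20 and 15.3 (2.62 ± 0.87, limma adjusted p = 0.0284) and MMP9, a gelatinase of neutrophils, was higher by 2.68 ± 0.96 (limma adjusted p = 0.0394). Neither call held when any 1 of S2, S7, S18 or S23 was left out, and the list then counted 0 higher genes. It counted 1 without S11, S12 or S20. ELANE, the elastase of neutrophil precursors, ranged from 0 to 122 in pBTSC and from 1.73 to 176 in CD45+ (-1.56 ± 1.58, limma adjusted p = 0.487), and S100A8, an abundant neutrophil protein, from 50.4 to 1522 and from 60.8 to 1054 (limma adjusted p = 0.952).

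Mast cell genes were few in the table, with 4 tested, of which 2 were higher in pBTSC. MS4A2, the beta chain of the IgE receptor, stood at 249, 363, 624, 820.5 and 2344 in pBTSC and at 86.3, 80.7, 245, 24.9 and 73.6 in CD45+ (2.996 ± 0.676, limma adjusted p = 0.00240). Each group held 1 library apart, S20 and S12, and the ranges touched without overlap. FCER1A, its alpha chain, was higher by 1.74 ± 0.59 (limma adjusted p = 0.0314), and was not called without S3, S8, S11, S15 or S20, leaving a count of 1. HDC, which makes histamine, was at 194 ± 191 SD against 67.2 ± 45.8 SD (limma adjusted p = 0.160).

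Of 10 haematopoietic progenitor genes, 4 were higher in pBTSC, 0 lower and 6 neither. CD34, which marks blood progenitors and also vessel endothelium and fibroblasts, was the most abundant, at 6476, 4931, 4995, 6357 and 7867 against 2840, 2974, 1084, 4413 and 2917 (1.22 ± 0.39, limma adjusted p = 0.0227). GATA2, a factor of blood progenitors and endothelium, was higher by 1.35 ± 0.26 (limma adjusted p = 5.6e-04), RUNX1, the core factor of definitive blood formation, by 1.12 ± 0.39 (limma adjusted p = 0.0359) and KIT, the stem cell factor receptor, by 1.94 ± 0.71 (limma adjusted p = 0.0422). The number of calls was 1 without S20 and 2 without S2, S3, S7, S8 or S12, and only GATA2 kept its call throughout.

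Red cell genes were led by the globin HBB, which stood at 28770, 92977, 76431, 28318 and 125452 in pBTSC and at 11736, 15011, 14149, 2391 and 1444 in CD45+, a 7.87-fold difference of the means (3.27 ± 0.79, limma adjusted p = 0.00394). ALAS2, the erythroid enzyme that starts haem synthesis, stood at 628, 1812, 1541, 859 and 2730 against 240, 332, 240, 63.6 and 31.3 (3.33 ± 0.71, limma adjusted p = 0.00152). Both separated the groups without overlap, and within CD45+ both were lowest in S18 and S23. Of 17 erythroid genes tested these 2 were higher (11% over all genes), 0 were lower (9.54%) and 15 were neither. The list median was 0.72. GATA1, the master factor of red cell precursors, was at 30.9 ± 22.9 SD against 56.4 ± 45.1 SD (-0.38 ± 0.93, limma adjusted p = 0.796). TFRC, the transferrin receptor, was at 1808 ± 395 SD against 3935 ± 2644 SD (-0.90 ± 0.36, limma adjusted p = 0.0599) and was called lower without S3, S8 or S12.

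Some platelet genes were lower in pBTSC. Of 10 megakaryocyte and platelet genes tested, 6 were lower, 0 higher and 4 neither, with a median of -2.34 and no overlap in 6. Their summed share overlapped between the groups, at 0.0157 to 0.0184% in pBTSC and 0.0139 to 0.0199% in CD45+. PPBP, a chemokine of platelet granules, stood at 5.13, 18.8, 1.81, 3.40 and 18.8 in pBTSC and at 911, 694, 899, 154 and 195 in CD45+ (-5.82 ± 0.64, limma adjusted p = 2.0e-06). TREML1, a receptor of platelet granules, was at most 2.84 in pBTSC and at 190, 193, 164, 27.4 and 24.8 in CD45+ (-5.42 ± 0.81, limma adjusted p = 5.8e-05). In both genes S18 and S23 were the lowest CD45+ libraries. ITGA2B, the platelet integrin alpha chain, was at 2052 ± 211 SD against 1760 ± 188 SD (limma adjusted p = 0.181). Within S15 to S23 alone, 3 members were lower.

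Antigen presentation genes were mostly alike in level. Of 13 tested, 0 were higher (11% over all genes), 2 lower (9.54%) and 11 neither. The invariant chain CD74 was at 21575 ± 9508 SD against 13542 ± 4810 SD (0.63 ± 0.36, limma adjusted p = 0.197). CTSS, the cathepsin of antigen-presenting cells, was lower (-1.98 ± 0.48, limma adjusted p = 0.00389). BATF3, a factor of a dendritic cell subset, was lower (-1.53 ± 0.52, limma adjusted p = 0.0318), but not without S2, S7, S8, S11 or S12; the list counted 1 lower gene without S2, S7, S11 or S12.

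Of 26 chemokines and cytokines tested, 5 were higher, 3 lower and 18 neither. Over all genes tested 11% were higher and 9.54% lower. CXCL16, the ligand of CXCR6, stood at 682, 345, 433, 1209.5 and 861 in pBTSC and at 1915, 2791, 8808, 6175 and 6595 in CD45+ (-2.83 ± 0.47, limma adjusted p = 1.7e-04). CXCL12, which retains blood cells through CXCR4, was lower (-1.36 ± 0.43, limma adjusted p = 0.0218) and IL18, a macrophage cytokine (-1.58 ± 0.56, limma adjusted p = 0.0370), and each lost its call without some of the libraries, 5 for CXCL12 and 7 for IL18. The ligands of the lymphocyte homing receptor CCR7 were higher in every pBTSC library. CCL21 was at 1743, 1983, 3154, 8883 and 6953 against 585, 806, 1255, 1308 and 1087 (1.93 ± 0.40, limma adjusted p = 0.00133), and CCL19 was higher by 2.08 ± 0.54 (limma adjusted p = 0.00668). CX3CL1, a membrane-bound chemokine, was higher by 1.33 ± 0.29 (limma adjusted p = 0.00195).

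CCL20, a ligand of mucosal lymphocytes, was higher by 2.499 ± 0.893 (limma adjusted p = 0.0389) and CXCL8, which attracts neutrophils, by 1.38 ± 0.52 (limma adjusted p = 0.0477), but CCL20 was not called without S2, S7, S11, S15, S18 or S23, and CXCL8 kept its call only without S8 or S20. The list counted 7 higher members without S8 or S20, 3 without S2, S7, S11, S15, S18 or S23 and 1 lower member without S7, S12 or S23. Of 17 interferon-response genes, 0 were higher (11% over all genes), 1 was lower (9.54%) and 16 were neither. The one lower was STAT2, part of the factor that interferon activates, at 1833, 1737, 1616, 3479 and 2299 against 3954, 3727, 4247, 8182 and 7475 (-1.31 ± 0.25, limma adjusted p = 7.2e-04). MX1, an antiviral GTPase, was at 8582 in S15 and 8194 in S18 and between 238 and 1483 in the other 8 libraries.

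Plasma protein and metabolic genes of hepatocytes differed more, by the median of their lists, than the list of any blood lineage. Of 31 plasma protein genes tested, 30 were lower in pBTSC, 0 higher and 1 neither, with a median log2 fold change of -7.30 and no overlap in 30. Of 30 metabolic genes, 27 were lower, 0 higher and 3 neither, with a median of -6.43. The sources used here describe the CD45+ cells as an antibody sort and the part of hepatocyte RNA in the difference was not tested; its level in each library is given here.

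ALB, serum albumin, stood at 376, 287, 288, 19832 and 25087 in pBTSC and at 525057, 513084, 563788, 1759870 and 1419390 in CD45+, a 104-fold difference of the means (-8.89 ± 1.17, limma adjusted p = 1.5e-05). S15 and S20 were far above S2, S7 and S11 but still far under every CD45+ library. FGB, a fibrinogen chain, was 210-fold lower by the means (-9.39 ± 1.03, limma adjusted p = 2.0e-06), and APOA1, the main protein of high-density lipoprotein, only 3.10-fold, at 23518, 27035, 23582, 22643 and 27517 against 103922, 85154, 58046, 70758 and 67705 (-1.61 ± 0.34, limma adjusted p = 0.00144). C3, the central complement protein, was lower (-3.19 ± 0.50, limma adjusted p = 9.9e-05). APOA1 and C3 were thus abundant in every pBTSC library.

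The lowest pBTSC values of the list were those of CPN2, a subunit of carboxypeptidase N, and APCS, serum amyloid P. CPN2 was at 0.454, 1.29, 0, 0 and 47.9 in pBTSC and between 1241 and 4136 in CD45+, and APCS at 0 to 7.19 against 100 to 22198. AFP, alpha-fetoprotein of the immature liver, was the exception, at 8066, 1048, 3856, 12087 and 8054 in pBTSC and at 98727, 130426, 65022, 1043 and 1574 in CD45+ (-1.75 ± 1.47, limma adjusted p = 0.392). The CD45+ library S18 held less of it than every pBTSC library, and S23 less than 4 of the 5.

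Among the metabolic genes, CPS1, which starts the urea cycle, stood at 119, 9.60, 28.8, 290 and 197 in pBTSC and at 39817, 61340, 5701, 23938 and 15687 in CD45+ (-8.23 ± 0.84, limma adjusted p = 9.4e-07). HPD, an enzyme of tyrosine breakdown, was 273-fold lower by the means (-9.03 ± 0.93, limma adjusted p = 1.0e-06). S12, the CD45+ library with the highest leukocyte share, was the lowest CD45+ library in both. CYP3A29, a drug-metabolizing cytochrome, was at 721, 1019 and 623 in S3, S8 and S12 and at 30088 and 55154 in S18 and S23, against 91.9 to 940 in pBTSC (-4.13 ± 1.28, limma adjusted p = 0.0187), and it was not called without S18 or S23. GLUL, glutamine synthetase, was at 7432 ± 1159 SD against 11635 ± 5392 SD (-0.55 ± 0.28, limma adjusted p = 0.147). CYP2A19, another cytochrome, was between 14.3 and 26.7 in 4 CD45+ libraries, at 654 in S18 and between 0 and 77.4 in pBTSC (limma adjusted p = 0.773).

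Transcription factors of hepatocytes followed with smaller changes. Of 15 tested, 12 were lower in pBTSC, 1 higher and 2 neither (median -1.82). NR1H4, the bile acid receptor FXR, stood at 58.3, 25.96, 38.2, 66.0 and 101 in pBTSC and at 1342, 1410, 1028, 1557 and 1502 in CD45+ (-4.67 ± 0.27, limma adjusted p = 2.7e-09). NR0B2, its target SHP, was at 0.636 to 12.6 against 123 to 257 (-5.68 ± 0.53, limma adjusted p = 3.7e-07). HNF4A, which is shared by hepatocytes and other endodermal epithelia, was lower (-1.82 ± 0.31, limma adjusted p = 2.3e-04), at 1366, 761, 857, 929 and 486 against 1557 to 3927. TBX3, a T-box factor of hepatoblasts and of mesenchyme, was higher, at 1076 ± 79.6 SD against 491 ± 275 SD (1.32 ± 0.38, limma adjusted p = 0.0120), and PROX1 was at 829 ± 451 SD against 1186 ± 495 SD (limma adjusted p = 0.272).

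**Figure D3:**
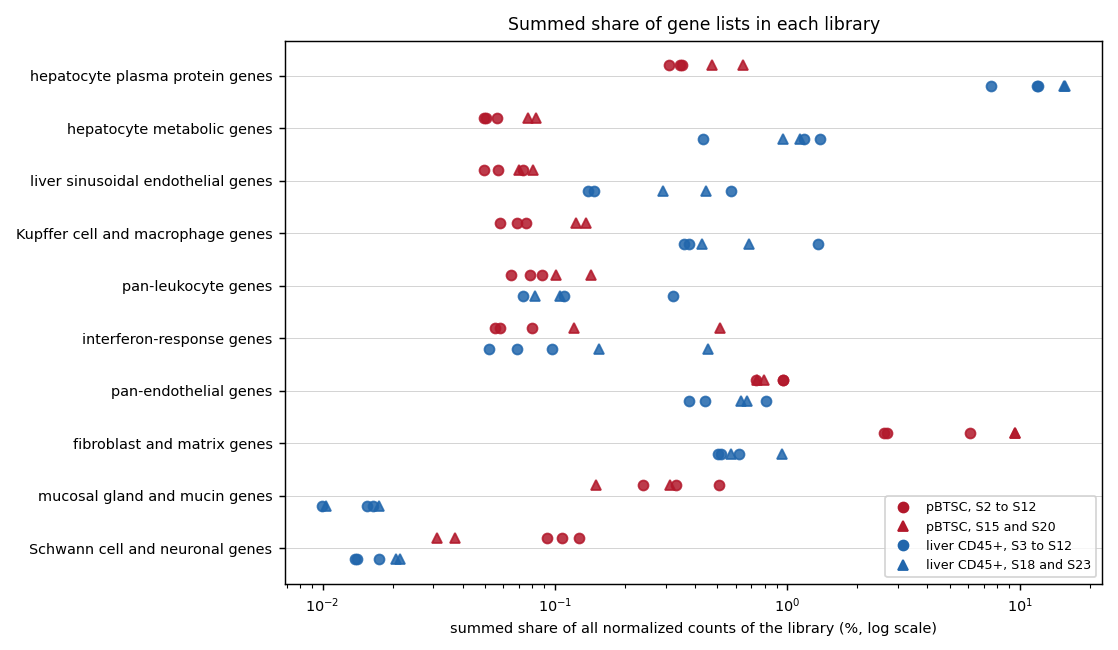
Summed share of all normalized counts of a library (x axis, percent, log scale) taken by 10 gene lists (rows) in each pBTSC (red) and liver CD45+ library (blue), circles for storage numbers S2 to S12 and triangles for S15 to S23. Hepatocyte plasma protein genes take 7.51 to 15.7% of the CD45+ and 0.308 to 0.644% of the pBTSC libraries, while the pan-leukocyte shares of the groups overlap.

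Sinusoidal endothelial genes were also lower in pBTSC. Of 14 tested, 12 were lower, 0 higher and 2 neither, with a median of -2.43. STAB2, the hyaluronan scavenger receptor of the sinusoids, stood at 40.6, 77.1, 153, 138 and 987 in pBTSC and at 8269, 8862, 40711, 20752 and 42272 in CD45+ (-7.03 ± 0.78, limma adjusted p = 2.3e-06). CLEC4G, a sinusoidal lectin, was lower (-7.20 ± 0.68, limma adjusted p = 4.2e-07) and OIT3, a secreted protein of the same endothelium (-7.13 ± 0.66, limma adjusted p = 2.9e-07). In these 3 genes S20 was the highest pBTSC library. STAB1, which macrophages carry as well, was lower (-1.34 ± 0.41, limma adjusted p = 0.0167; 0.0512 without S12), and F8, coagulation factor VIII, was at 3466 ± 1136 SD against 2298 ± 1188 SD (limma adjusted p = 0.222).

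Genes of all endothelia, in contrast, were mostly not called. Of 17 tested, 2 were higher in pBTSC, 0 lower and 15 neither (median 0.34). The shares over all genes were 11% higher and 9.54% lower, so the higher count is near that of any genes. VWF, von Willebrand factor, of larger vessels rather than sinusoids, stood at 25734, 30693, 18211, 17881 and 13150 in pBTSC and at 5626, 3801, 3967, 6235 and 4163 in CD45+ (2.12 ± 0.26, limma adjusted p = 7.5e-06). EMCN, endomucin, was higher by 1.46 ± 0.25 (limma adjusted p = 1.8e-04), at 3203 to 3852 against 971 to 1990. KDR, a receptor of vascular endothelial growth factor, was at 8251 ± 808 SD against 14943 ± 6377 SD (-0.73 ± 0.43, limma adjusted p = 0.210). All 3 genes were thus abundant in pBTSC libraries.

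Of 14 hepatic stellate cell genes, 8 were lower in pBTSC, 2 higher and 4 neither (median -1.78). LRAT, which stores retinol as ester, stood at 2.14, 2.20, 3.33, 13.2 and 7.03 in pBTSC and at 204, 855, 851, 983 and 702 in CD45+ (-6.86 ± 0.57, limma adjusted p = 1.1e-07). COLEC11, a soluble lectin, was lower (-4.35 ± 0.41, limma adjusted p = 4.0e-07) and HHIP, an inhibitor of hedgehog signalling (-3.39 ± 0.34, limma adjusted p = 7.7e-07). DES, desmin, which smooth muscle shares, was higher, at 6836, 8325, 4155, 10038 and 11200 against 2650, 3626, 1268, 985 and 736 (2.31 ± 0.41, limma adjusted p = 2.8e-04). The number of higher members was 1 without S2, S7, S12 or S23, where DES kept its call.

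The epithelial genes of bile ducts did not move as a group. Of 23 tested, 4 were higher in pBTSC, 6 lower and 13 neither, with a median of -0.01; 8 were higher and 4 lower with all libraries scaled to an equal sum. KRT7 and KRT8, keratins of duct epithelium, were at 1085 ± 606 SD against 763 ± 154 SD (limma adjusted p = 0.434) and at 7050.5 ± 3294 SD against 8225 ± 3833 SD (limma adjusted p = 0.667). SPP1, the secreted glycoprotein osteopontin, was the most abundant that rose, at 51735, 28688, 44052, 29923 and 13614 against 5049, 5981, 4003, 3738 and 4162 (2.76 ± 0.28, limma adjusted p = 9.9e-07). KRT20, the keratin of gut and gallbladder surface epithelium, stood at 771, 120, 573, 1494 and 894 in pBTSC and at 1.44 to 5.41 in CD45+ (7.27 ± 0.63, limma adjusted p = 1.6e-07). AQP1, the water channel of ducts and vessels, was higher by 1.10 ± 0.40 (limma adjusted p = 0.0437) and was not called when any library but S18 was left out.

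Among the lower ones, CDH1, the epithelial cadherin, stood at 6839, 4090, 4763, 4665 and 4046 in pBTSC and at 11967, 10382, 6132, 15366 and 16462 in CD45+ (-1.25 ± 0.26, limma adjusted p = 0.00143), with S2 above S12. CLDN4, a tight junction protein, was lower (-1.999 ± 0.40, limma adjusted p = 9.1e-04), and CDHR5, a cadherin of the microvilli (-4.93 ± 0.76, limma adjusted p = 8.6e-05). CFTR, the chloride channel of bile duct cells, was at 887, 523, 635, 660 and 677 against 1743, 1488, 1140, 1000 and 2423 (-1.15 ± 0.26, limma adjusted p = 0.00261) and fell short of the fold required without S23. CDH1 and CDHR5 are made by hepatocytes or other absorptive epithelia too, and the hepatocyte shares above move with this comparison; their part in it was not tested.

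**Figure D4:**
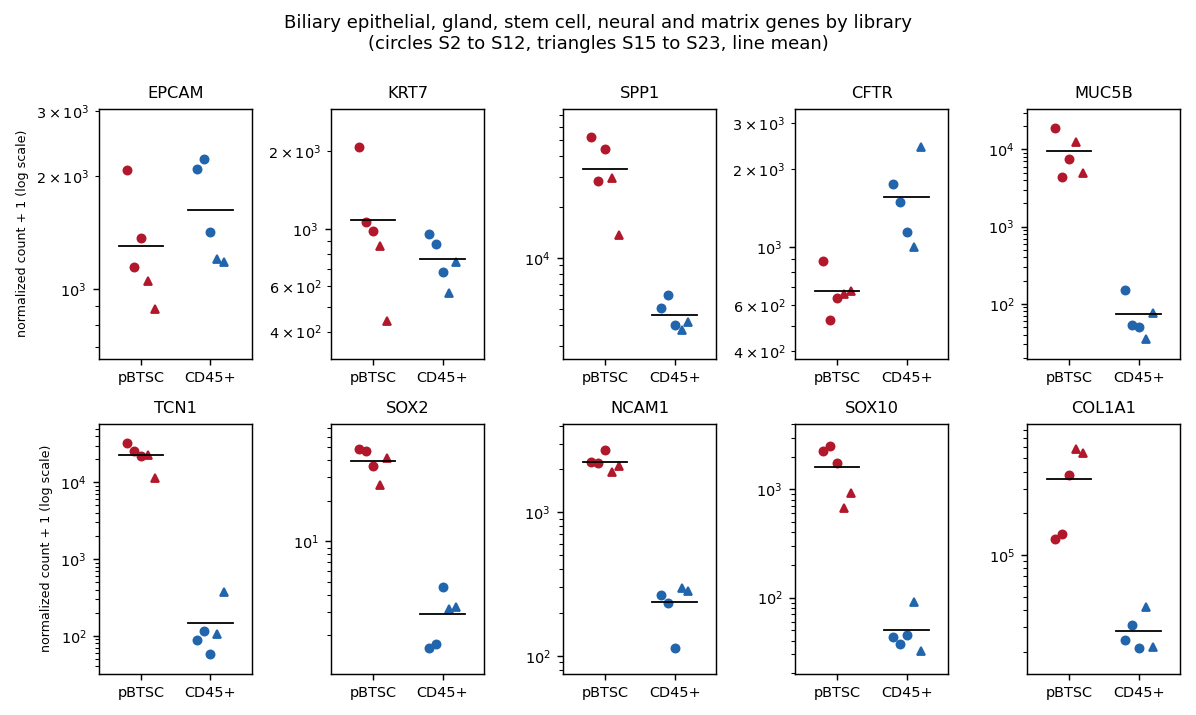
Normalized count + 1 (y axis, log scale, its range set for each gene) of 10 genes in the 5 pBTSC (red) and 5 liver CD45+ libraries (blue); circles are storage numbers S2 to S12, triangles S15 to S23, and the line is the mean. EPCAM and KRT7 overlap, CFTR is lower in every pBTSC library, and SPP1, MUC5B, TCN1, SOX2, NCAM1, SOX10 and COL1A1 are higher in every pBTSC library.

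Genes of mucous glands included OLFM4, which ranked first among the rises without the shallow libraries. Of 16 mucosal gland and mucin genes tested, 8 were higher, 0 lower and 8 neither, with a median of 2.39; 10 were higher without the shallow libraries. They took 0.150 to 0.510% of the pBTSC libraries and 0.00997 to 0.0174% of the CD45+ libraries. OLFM4, a secreted glycoprotein of crypt and gland bases, stood at 7201, 3674, 8254, 880 and 434 in pBTSC and at 0, 0, 10.2, 5.38 and 1.97 in CD45+ (9.70 ± 0.90, limma adjusted p = 3.1e-07). Within pBTSC the wild-type libraries S15 and S20 were the lowest, several fold under the others.

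The gel-forming mucins were read at high levels. MUC5B stood at 18979.5, 4355, 7445, 12615 and 4974 in pBTSC and at 150.5, 52.2, 49.1, 33.7 and 75.9 in CD45+ (7.01 ± 0.87, limma adjusted p = 7.7e-06), and MUC5AC at 1699 to 7157 against 16.5 to 81.2 (6.68 ± 0.96, limma adjusted p = 4.1e-05). TCN1, a cobalamin-binding protein secreted by glands, was at 32545, 25476, 22245, 22484 and 11321 against 87.8, 114, 56.2, 104 and 372 (7.52 ± 0.98, limma adjusted p = 1.4e-05). AGR2, a chaperone of mucin folding, was higher by 5.93 ± 0.42 (limma adjusted p = 2.0e-08), and PIGR, the carrier of antibodies across epithelia, by 2.31 ± 0.45 (limma adjusted p = 7.4e-04), with S7 inside the CD45+ range.

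Not all gland genes took part. MUC6, the mucin of pyloric and Brunner's glands, was at 2.78 ± 2.31 SD against 7.27 ± 3.24 SD (-1.30 ± 0.69, limma adjusted p = 0.158), and TFF1, a trefoil peptide of gastric surface cells, was at 0 to 2.63 in pBTSC and at 0 to 8.02 in CD45+. Both are thus near the floor in most libraries.

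Of 18 stem cell and biliary endoderm genes, 3 were higher in pBTSC, 2 lower and 13 neither (median 0.21). These counts are near the shares over all genes, 11% higher and 9.54% lower. SOX2, a factor of pluripotent and foregut cells, stood at 47.7, 45.7, 35.6, 25.1 and 40.7 in pBTSC and at 0.601, 0.727, 3.61, 2.16 and 2.25 in CD45+ (3.88 ± 0.53, limma adjusted p = 2.1e-05). The value of S15 is under its floor of 3 reads, and 3 of the CD45+ libraries were at or under 3 reads. NKX6-1, a factor of pancreatic progenitors, was at 21.1, 5.16, 26.7, 12.6 and 36.9 in pBTSC, and in CD45+ 4 libraries were at 0 and S3 at 1.20; its fitted fold change depends on the pseudocount and is not given. NCAM1, described with the sort antigens, was the third.

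SOX17 and PDX1, endodermal factors of the biliary and pancreatic buds, were not called. SOX17 stood at 1170, 1055, 856, 1131 and 1168 against 900.5, 735, 461, 678 and 754 (0.63 ± 0.24, limma adjusted p = 0.0551) and PDX1 at 147, 105, 109, 126 and 71.9 against 52.9, 52.4, 58.5, 44.6 and 84.7 (0.91 ± 0.69, limma adjusted p = 0.333). SOX9, a factor of duct cells, was at 669 ± 178 SD against 1109 ± 356 SD (-0.72 ± 0.25, limma adjusted p = 0.0325), short of the fold required. Without S3, S7, S20 or S23 the count of lower genes was 1. LIN28B, an RNA-binding protein of fetal tissues, stood at 17.9, 13.7, 26.1, 12.6 and 21.6 in pBTSC and at 195, 300, 145, 106 and 146 in CD45+ (-3.17 ± 0.42, limma adjusted p = 1.8e-05).

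Fibroblast and matrix genes were higher in pBTSC with few exceptions. Of 23 tested, 20 were higher, 0 lower and 3 neither, with a median of 2.39. They took 2.61, 2.68, 6.14, 9.50 and 9.58% of the pBTSC libraries and 0.503 to 0.949% of the CD45+ libraries. COL1A1, the main chain of fibrillar collagen, stood at 129440, 141140, 381293, 581225 and 543321 in pBTSC and at 24100, 31323, 21175, 41775 and 21691 in CD45+ (3.44 ± 0.47, limma adjusted p = 2.2e-05). COL3A1 was higher by 3.32 ± 0.55 (limma adjusted p = 1.6e-04). In both collagens S2 and S7 were the lowest pBTSC libraries and S15 and S20 the highest.

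LUM, the collagen-binding proteoglycan lumican, was at 4227, 2514, 10050, 19666 and 22905 against 69.2 to 188 (6.45 ± 0.62, limma adjusted p = 5.0e-07), and MFAP5, a microfibril protein of adventitial fibroblasts, was higher by 6.56 ± 1.16 (limma adjusted p = 2.9e-04). POSTN, periostin, stood at 12672 ± 6050 SD against 16337 ± 3804 SD (-0.53 ± 0.36, limma adjusted p = 0.292).

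Of 14 smooth muscle genes, 9 were higher, 0 lower and 5 neither (median 1.23), and 11 were higher without the shallow libraries. CNN1, calponin, stood at 6242, 9315, 8432, 9428 and 8723 in pBTSC and at 3111, 4073, 1606, 3523 and 2372 in CD45+ (1.58 ± 0.29, limma adjusted p = 4.9e-04). MYOCD, the coactivator that drives this programme, was higher by 1.12 ± 0.41 (limma adjusted p = 0.0411) but not without S2, S3, S7, S8, S11 or S12. ACTA2, smooth muscle actin, was the most abundant, at 55128 ± 23620 SD against 30238 ± 17044 SD (0.95 ± 0.41, limma adjusted p = 0.0834), and was called higher without the shallow libraries (1.09, limma adjusted p = 0.0426).

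Transcription factors of the foregut mesenchyme were higher in 12 of 18 tested, with 0 lower and 6 neither and a median of 2.67. FOXF2, a forkhead factor of gut mesenchyme, stood at 404, 37.7, 290, 527 and 816 in pBTSC, with each CD45+ library at or under 3 reads. HAND1, a factor of lateral plate mesoderm, was at 47.0, 6.20, 37.5, 138 and 152, with 3 CD45+ libraries at 0 and the others at 2.16 and 1.35. MEOX1, a homeobox factor of mesoderm, was at 395, 586, 289, 703 and 370 against 5.06 to 9.36 (5.86 ± 0.69, limma adjusted p = 4.3e-06) and NKX2-3, which patterns gut and spleen mesenchyme, at 608 to 1282 against 32.9 to 55.4 (4.14 ± 0.71, limma adjusted p = 2.4e-04). FOXF2 and HAND1 were thus at or near the floor in CD45+, and MEOX1 and NKX2-3 above it.

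FOXF1, their relative which liver mesenchyme also uses, was higher by 1.02 ± 0.26 (limma adjusted p = 0.00588) and fell under the fold required without S2, S8, S12 or S20. GLI1, a target of hedgehog signalling, was at 209 ± 45.8 SD against 340 ± 156 SD (limma adjusted p = 0.280). The count of higher factors was between 8 and 11 when any 1 library was left out, and 7 within S15 to S23.

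Neural genes were higher too. Of 17 Schwann cell and neuronal genes tested, 13 were higher, 0 lower and 4 neither, with a median of 4.14. SOX10, the factor of Schwann cells and enteric glia, was at 2241, 2503, 1751, 672 and 933 against 42.3, 36.2, 44.1, 90.8 and 31.0 (4.96 ± 0.88, limma adjusted p = 3.3e-04).

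CHGA, chromogranin A of endocrine and neural granules, was at 1025, 702, 856, 214 and 134 against 2.41 to 7.22 (6.68 ± 0.65, limma adjusted p = 5.2e-07), and STMN2, a tubulin regulator of neurons, was higher by 5.79 ± 0.58 (limma adjusted p = 7.9e-07). In SOX10, CHGA and STMN2 the 2 wild-type libraries held the lowest pBTSC values. MBP, myelin basic protein, was at 2670, 2222, 2167, 620 and 636 in pBTSC and at 954 to 1630 in CD45+ (0.08 ± 0.36, limma adjusted p = 0.893), so that S2, S7 and S11 were above and S15 and S20 below every CD45+ library.

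By the rule of size, the 15 largest rises without the shallow libraries included OLFM4, VIP, SCG2, TCN1, SLC9A3, SLC6A14, SLC26A3, FOXF2, CHGA, KRT20, AATK, MUC5B, CARTPT and MUC5AC. They fall into gland and surface epithelial genes, genes of neurons and endocrine cells, and a factor of mesenchyme. VIP, the vasoactive peptide of enteric neurons, stood at 1167, 191, 394, 87.9 and 74.8 in pBTSC, and CARTPT, another neuropeptide, at 417, 110, 256, 75.3 and 17.7. SCG2, a granule protein of neurons and endocrine cells, stood at 447, 117, 261, 152 and 248. In these 3 genes no CD45+ library was above 3 reads, so no fold is given for them.

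The ion exchangers among them belong to absorptive epithelium. SLC9A3, the sodium/hydrogen exchanger of the gallbladder and gut surface, was at 2089, 247, 709, 2207 and 1113 against 2.58 to 6.46 (7.62 ± 0.73, limma adjusted p = 4.4e-07). SLC26A3, a chloride/bicarbonate exchanger, was at 582, 3.61, 139, 1406 and 683, with 0 in all 5 CD45+ libraries, so that, against the highest 3-read floor among the CD45+ libraries, the median of pBTSC was at least 267-fold higher. S7 held 3.61, far under the other pBTSC libraries in this gene. SLC6A14, an amino acid transporter, was at 195 to 615 against 0 to 6.30 (7.21 ± 0.66, limma adjusted p = 2.8e-07), and AATK, a kinase found in nerve tissue, at 337 to 1727 against 1.64 to 18.3 (6.64 ± 0.84, limma adjusted p = 9.3e-06).

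The 15 largest falls by the same rule were SERPINA3-2, APOC2, APOA2, APOC3, F9, FGB, ACSM4, G6PC, ALB, HPD, CCL16, SERPINC1, C8A, A1BG and SERPINA5. With CCL16, a chemokine made by the liver, they are genes known from hepatocytes: apolipoproteins (APOC2, APOA2, APOC3), clotting factors and inhibitors (F9, FGB, SERPINC1, SERPINA5), a complement chain (C8A) and enzymes (G6PC, HPD, ACSM4). APOA2 stood at 0.904, 1.04, 1.296, 101 and 147 in pBTSC and at 6983, 10071, 6133, 6040 and 6952 in CD45+ (-9.39 ± 1.01, limma adjusted p = 1.7e-06). F9 was at 1.80, 1.87, 0.631, 156 and 250 against 3796 to 11731 (-9.24 ± 1.12, limma adjusted p = 6.0e-06). G6PC, glucose-6-phosphatase, was at 2.72, 2.84, 2.54, 138 and 173 against 3591 to 21181 (-9.02 ± 0.997, limma adjusted p = 2.2e-06).

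Of 22 cell cycle genes tested by limma, 0 were called, with a median of -0.18. Among all genes 11% were higher and 9.54% lower. MKI67, the proliferation antigen Ki67, stood at 1872, 1861, 3310.5, 2499 and 1844 in pBTSC and at 1260, 2090, 5563, 1993 and 2204 in CD45+ (-0.06 ± 0.45, limma adjusted p = 0.943), and RRM2, a subunit of ribonucleotide reductase, gave the largest difference of the list (-0.70 ± 0.34, limma adjusted p = 0.119). TOP2A, a topoisomerase of dividing cells, was at 1972 ± 895 SD against 1682 ± 903 SD (limma adjusted p = 0.729).

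Of 22 immediate-early and stress genes, 2 were higher (11% over all genes), 2 lower (9.54%) and 18 neither. FOS and EGR1, which tissue digestion is known to induce, were high in all libraries, FOS at 99323 ± 21423 SD against 61590 ± 7919 SD (0.67 ± 0.25, limma adjusted p = 0.0510) and EGR1 at 128942 ± 29017 SD against 87070 ± 18202 SD (0.56 ± 0.29, limma adjusted p = 0.153). EGR3 and NR4A2, further genes of this response, were higher by 2.09 ± 0.46 (limma adjusted p = 0.00194) and by 1.74 ± 0.32 (limma adjusted p = 4.6e-04). MT1A, a metallothionein that binds zinc and copper, was lower, at 62.0, 56.0, 34.3, 68.3 and 277 against 7247, 4704, 3075, 2712 and 9962 (-6.02 ± 0.63, limma adjusted p = 1.1e-06). The higher genes numbered 4 with all libraries scaled to an equal sum and 5 with quantile normalization.

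The storage numbers fall into 2 ranges, S2 to S12 and S15 to S23, which hold H2B-GFP and wild-type pBTSC respectively; for the CD45+ libraries the sources used here give no such label. Within S2 to S12 (3 against 3) 2297 genes were higher and 1687 lower, and within S15 to S23 (2 against 2) 1366 were higher and 1241 lower. The difference of the effect between the ranges passed the threshold of a limma adjusted p of 0.05 in 140 of 15334 genes (0.913%), and in 83 of 15185 without S15. Of the 140, 91 had a more negative effect within S2 to S12, and 12 were hepatocyte plasma protein genes of the list, of which 31 were tested. Line, piglets and storage range cannot be told apart here.

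APOA2 differed most firmly: its log2 fold change was -11.83 within S2 to S12 and -5.72 within S15 to S23 (limma adjusted p of the difference = 2.1e-04, and 0.00105 without S15). ALB gave -10.72 and -6.15 (limma adjusted p = 3.8e-04), F9 -11.48 and -5.87 (0.00537) and APOC3 -11.80 and -5.43 (0.00741). In pBTSC, APOA2, F9 and APOC3 stood at 15.9 normalized counts or less in S2, S7 and S11 and at 101 to 899 in S15 and S20. ALB stood at 287 to 376 in S2, S7 and S11 and at 19832 and 25087 in S15 and S20. AFP turned its sign, with -4.88 within S2 to S12 and 2.94 within S15 to S23 (limma adjusted p = 0.0108).

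CYP3A29 and TFRC differed between the ranges as well, and so did MBP. CYP3A29 gave -2.90 and -5.99 (limma adjusted p = 0.0309; 0.0765 without S15) and TFRC -0.16 and -2.01 (0.0490; 0.0514 without S15), in step with higher values in S18 and S23. MBP gave 1.02 and -1.33 (limma adjusted p = 0.00537; 0.0276 without S15), in step with lower values in S15 and S20. For JCHAIN the effects were 0.87 and 6.42 (limma adjusted p = 0.0505), for IL7R 4.89 and 5.26 (0.801), and for CD163 -3.52 and -2.71 (0.659).

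**Figure D5:**
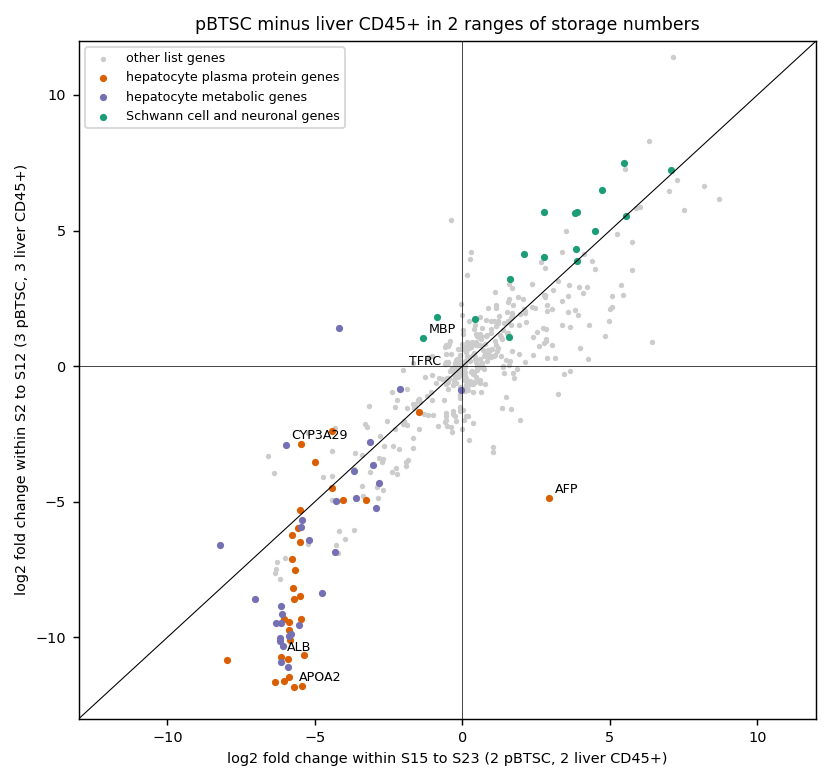
Log2 fold change, pBTSC minus liver CD45+, of list genes within storage numbers S15 to S23 (x axis, 2 against 2 libraries) and S2 to S12 (y axis, 3 against 3), with the line of equality. Hepatocyte plasma protein (orange) and metabolic genes (violet) lie mostly below that line, such as ALB at -6.15 (x) and -10.72 (y), and AFP lies at 2.94 (x) and -4.88 (y).

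To see what sets the CD45+ libraries apart within liver, they were compared with the CD45- fractions in the same fit. Against the 4 CD45-/EpCAM+ libraries 0 of 15576 genes were called (0%) by limma, with 214 at an unadjusted p under 0.05, fewer than 1 in 20 of those tested. The number called stayed at 0 under 4 other settings, with 78 to 303 genes at an unadjusted p under 0.05. The fit held group only, so any spread by storage range or donor stayed in its error. S13, among the CD45-/EpCAM+ libraries, had only 0.801 M estimated reads. The absence of calls thus does not show that the fractions are alike. PTPRC differed by -0.24 on the log2 scale, CD163 by -0.33 and ALB by -0.15, CD45+ minus CD45-/EpCAM+. The CD45-/EpCAM+ libraries gave the pan-leukocyte list 0.0620 to 0.302% of their normalized counts and the CD45+ libraries 0.0727 to 0.322%.

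Against the 2 CD45-/EpCAM- libraries 848 genes were higher in CD45+ (5.44%) and 282 lower (1.81%). Erythroid genes made the clearest group, with 14 of 17 lower in CD45+ and a median of -5.28. The log2 fold change was -6.00 for HBB (limma adjusted p = 0.00288) and -5.55 for ALAS2 (0.00257). The CD45-/EpCAM- libraries are S5 and S14, while CD45+ also holds S18 and S23, its lowest libraries in both genes. Fraction and storage number thus cannot be fully told apart in these folds. Erythroid genes took 0.0320 to 0.0866% of the CD45+ and 0.945 to 3.04% of the CD45-/EpCAM- libraries. Smooth muscle genes were higher in 9 of 14, biliary epithelial genes in 11 of 23 and immediate-early genes in 9 of 22, with 0 lower in each. Of 22 pan-leukocyte genes 0 were higher in CD45+ and 4 were lower, and of 31 hepatocyte plasma protein and 30 metabolic genes 0 were called in either direction.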

How the data were processed

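RNA-seq of 20 pig libraries was used, 5 of pBTSC and 5 of liver CD45+ cells; groups were read from the labels. Per the labels, RNA was purified with RNeasy and libraries were made with a stranded poly(A) kit. The authors deposited a table of normalized counts, a signal scaled between libraries, for 25764 genes, of which 7782 carry no name; the submitters' processing notes name STAR, Salmon and DESeq2 without versions, and the genome build is not given in the sources used here. Whole reads could not be recovered, since at most 81.6% of low values lay within 0.05 of a whole multiple of the value of 1 read. Depth was estimated from that value, 3 reads were taken as the floor, and intervals of counting were not formed.

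Genes reaching 10 normalized counts in 2 or more libraries were tested by limma 3.58.1 in R 4.3.3 (lmFit and eBayes with trend) on log2(normalized count + 1), with all 20 libraries in 6 groups and Benjamini-Hochberg adjustment over all genes tested. Calls required an adjusted p below 0.05 together with a log2 fold change beyond 1 in either direction. The 8 sort antigen genes were compared by exact two-sided permutation tests (scipy 1.17.1) on the same scale. The fit was also run on simulated data without any effect of storage range, line or donor, so that run gives no support to the calls where such effects exist. Tables and figures were made with Python 3.11.15, numpy 2.4.6, pandas 2.3.3 and matplotlib 3.10.9.

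The members and the 27 gene lists were chosen with earlier results of these data known. Of 555 listed genes, 495 had a row and 481 were tested. Genes were named by a rule: in each list the called members with the largest change, the most abundant members and those against the list, and the 15 largest rises and falls without overlap in the fit without the shallow libraries. Some genes named by this rule are not reported here. Alternatives were other pseudocounts, filters and scalings, left-out libraries, storage ranges and a block; the difference of effect between storage ranges was added after seeing the data.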

Additional observations from a re-analysis of the deposited data

Results flagged for a closer look

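Among the 5 libraries of a group, 1 library lay far from the other 4 by Dixon's criterion in 46 of 386 tests over the genes and list shares described; chance gives about 1 in 20. In liver CD45+, S12 was far above the others in FCER1G (4019), ITGB2 (5175), LCP1 (12448), TYROBP (1742), LSP1 (839), RAC2 (736), TIMD4 (7053), MARCO (6528), CD163 (40930.3), MS4A2 (245), BATF3 (296), CHGA (7.22) and MKI67 (5563 normalized counts), and in the shares of pan-leukocyte (0.322%) and mast cell genes (0.00225%). S18 was far above in KIT (556), MX1 (8194), CYP2A19 (654), TFF1 (8.02), COL3A1 (69250.2) and SOX10 (90.8), and in the shares of interferon-response (0.456%) and fibroblast genes (0.949%). S23 was far above in JCHAIN (102), CDHR5 (778) and TCN1 (372), S8 in CXCL8 (2398) and APOA2 (10071), and S3 in NKX6-1 (1.20) and in the share of immediate-early genes (1.81%). The NKX6-1 value of S3 is under its floor of 1.80, with the other CD45+ libraries at 0. That flag was fixed by these zeros and carries no weight, though it is among the 46.

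In pBTSC, S20 was far above the others in CLEC4F (573), STAB2 (987), CLEC4G (329.5), OIT3 (318), CD3E (197), MS4A2 (2344), CPN2 (47.9) and MT1A (277), and in the shares of T and NK cell (0.0201%) and mast cell genes (0.0177%). S2 was far above in KRT8 (12706) and CDH1 (6839), S7 in ELANE (122) and S100A8 (1522), and S15 in MX1 (8582) and the share of interferon-response genes (0.511%).

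The effect within S2 to S12 minus that within S15 to S23 passed the adjusted threshold by limma in 17 of 165 genes described. Over all genes tested the share was 0.913%. The genes described include the largest falls of the fit without the shallow libraries, where S2, S7 and S11 outnumber S20. That choice favours genes with a larger fall within S2 to S12, so the count cannot be read as an enrichment. It was negative, that is the fall was larger within S2 to S12, for ALB (-4.58), FGB (-5.54), AFP (-7.83), APOC2 (-6.12), APOC3 (-6.37), APOA2 (-6.11), F9 (-5.61), ACSM4 (-4.84), G6PC (-4.76), CCL16 (-5.19), SERPINC1 (-4.88), C8A (-4.46), A1BG (-5.03) and SERPINA5 (-5.30). It was positive for TFRC (1.85), CYP3A29 (3.09) and MBP (2.35). Without S15 the difference no longer passed for FGB (limma adjusted p = 0.0779), G6PC (0.110), CYP3A29 (0.0765) and TFRC (0.0514), and the other 13 passed. Line, piglets and storage range cannot be told apart in this difference.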

How the results depend on the processing

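The number of genes called stayed within 1.5 times the reported count under the other pseudocounts, filters, scalings, fits and left-out libraries tried (2900 to 3283 when 1 library was left out). Without a fold threshold it was 5261, with 2920 higher and 2341 lower. For CD45+ against CD45-/EpCAM- it was 714 with only those groups fitted. The cause of the following changes was not tested. With all libraries scaled to an equal sum the difference of PTPRC was 0.012, of CD44 0.12 and of MCAM 0.80, the last passing. Without S15 or the 3 shallow libraries MCAM was 0.64 and passed. When 1 library was left out, the difference ranged from -0.62 to 0.042 for PTPRC, from -0.30 to 0.044 for CD44, from 0.41 to 0.64 for MCAM, from 3.04 to 3.39 for NCAM1 and from 0.76 to 1.02 for PECAM1, the last 2 not passing without S2, S7, S11 or S20. In those fits the smallest possible p does not pass when only 1 gene reaches it. Within S2 to S12 CD44 was 0.11, NCAM1 3.62 and PECAM1 1.11, and CYP2A19 turned to 1.41. Within S15 to S23 AFP turned to 2.94, MYOCD to -0.031 and MBP to -1.33. Of 3806 values of single genes under alternatives, 3556 kept direction and call, 216 lost the call and 30 gained it; of the list counts 131 moved by over 1.5 times and 1111 did not. The labels give no replicate numbers that pair the groups. Neighbouring storage numbers taken as a block gave 3690 calls; deviations of neighbours correlated by 0.0406 to 0.259, and only S15 with S18 and S20 with S23 matched best. S15 limits low genes, since its floor of 3 reads is 37.7 normalized counts.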

Other observations

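HOX genes, the positional factors of the body axis, were not a list of the report. Of 22 tested, 12 were higher in pBTSC, 1 lower and 9 neither. The higher ones included HOXA7 (4.24 ± 0.48), HOXB7 (4.70 ± 0.60), HOXB8 (4.38 ± 0.46), HOXC4 (4.19 ± 0.64), HOXD8 (3.90 ± 0.28) and HOXD9 (4.85 ± 0.56, log2 fold change ± SE). HOXA2 to HOXA5, HOXB2 to HOXB5 and HOXD1 were not called (-0.14 to 0.90). Of 31 collagen genes 25 were higher, and COL4A4, a basement membrane chain, was the one lower (-1.76 ± 0.28). Of 17 genes of the SLC26 and SLC9 ion exchanger families, 5 were higher and 2 lower, SLC26A1 by -5.01 and SLC26A8 by -2.18.

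Immunoglobulin genes split the pBTSC libraries. The 23 constant region genes summed to 76.6, 19.9 and 37.8 normalized counts in S2, S7 and S11 and to 3185 and 7518 in S15 and S20, against 2.40, 3.64, 4.29, 15.3 and 65.6 in CD45+. The 17 variable region genes summed to 12.2, 2.10, 7.16, 276 and 1067 in pBTSC and to 0.602, 0, 1.43, 2.19 and 11.3 in CD45+. The libraries high in both sums, S15 and S20, are the wild-type pBTSC. Within CD45+, S18 and S23 of the same storage range were the highest in both sums. Line, piglets and storage range cannot be told apart in this split.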
